A study of Mus musculus with 8 samples.

Results

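The genes described here load and restrain the replicative DNA helicase at origins: Mcm2, Mcm3, Mcm4, Mcm5, Mcm6, Mcm7, Mcm10, Cdc6, Cdt1 and Gmnn. They were chosen by name, with earlier results of these data known. They are 10 of the 19752 genes that the array's accessions could be matched to, and were read by 11 of its 55681 probes. All 10 passed the filter on dim probes, and every one of the 11 probes was well above background on all 8 arrays. Expression was measured on 1-colour (Cy3) Agilent arrays in mesonephric tubules, part of a transient embryonic kidney, which were microdissected from mouse embryos on frozen, stained sections. There were 5 arrays of wild-type embryos, whose tubules the design describes as senescent, and 3 of embryos labelled p21KO -/-, described as non-senescent. The strain is given as C57/BL6 for both groups, and p21, the product of Cdkn1a, is an inhibitor of cyclin-dependent kinases. The labels give no embryonic stage, no targeted allele and no statement that samples came from separate embryos, so the spread behind each p-value is that of these samples and may be technical.

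Licensing is the step of the cell cycle at which an origin of replication is made ready to fire. In late mitosis and G1 the origin recognition complex and Cdc6 bind an origin, and together with Cdt1 they close rings of Mcm2 to Mcm7 around the DNA. Geminin, encoded by Gmnn, binds Cdt1 from S phase until mitosis and so prevents a second loading, while Mcm10 takes part later, when the loaded helicase is switched on. Genes of this group are among the classic targets of E2F transcription factors, and cells that leave the cycle lose MCM and Cdc6 expression.

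Promoter sequences are shown for the members whose printed window holds the letters of an E2F site. RefSeq promoters (GRCm38.p6, 250 bases before to 50 after a start) were in the table for 8 of the 10 genes. The spellings TTTCGCGC, TTTGGCGC, TTTCCCGC and TTTGCCGC of the site were searched on both strands. At least 1 was found in 6 of the 8 genes (75%), against 704 of all 27025 genes with a promoter (2.6%). Below are the 250 bases upstream of the start, 5′ to 3′ on the strand of the gene, with E2F letters in capitals. They lie at chr8:75109259-75109508 (plus strand) for Mcm5, at chr1:128359706-128359955 (minus strand) for Mcm6, at chr5:138171884-138172133 (minus strand) for Mcm7 and at chr11:98907901-98908150 (plus strand) for Cdc6.
Mcm5: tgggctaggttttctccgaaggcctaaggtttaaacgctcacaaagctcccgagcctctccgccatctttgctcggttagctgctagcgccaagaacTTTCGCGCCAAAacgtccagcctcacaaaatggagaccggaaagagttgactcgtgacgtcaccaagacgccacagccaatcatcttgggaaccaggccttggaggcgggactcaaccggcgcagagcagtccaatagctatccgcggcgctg
Mcm6: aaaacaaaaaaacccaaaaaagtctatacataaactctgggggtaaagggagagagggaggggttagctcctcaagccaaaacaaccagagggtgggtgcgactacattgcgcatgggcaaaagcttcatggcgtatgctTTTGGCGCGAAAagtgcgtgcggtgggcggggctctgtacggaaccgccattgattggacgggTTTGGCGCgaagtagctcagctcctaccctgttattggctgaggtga
Mcm7: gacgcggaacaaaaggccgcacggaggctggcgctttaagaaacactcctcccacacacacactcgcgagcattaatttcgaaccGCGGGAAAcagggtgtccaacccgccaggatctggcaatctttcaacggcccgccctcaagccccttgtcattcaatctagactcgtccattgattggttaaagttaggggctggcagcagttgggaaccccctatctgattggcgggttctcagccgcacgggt
Cdc6: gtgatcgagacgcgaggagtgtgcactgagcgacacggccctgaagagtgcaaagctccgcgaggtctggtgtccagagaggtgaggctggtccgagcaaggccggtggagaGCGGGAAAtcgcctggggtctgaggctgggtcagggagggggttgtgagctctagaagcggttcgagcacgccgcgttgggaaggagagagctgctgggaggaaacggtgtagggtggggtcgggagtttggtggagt

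In Mcm5 a pair of matches on opposite strands overlapped, at 153 to 146 and 149 to 142 bases before the start. Mcm6 held such an overlapping pair at 110 to 103 and 106 to 99 bases and a further match at 47 to 40 bases. Cdc6 had 1 match, on the minus strand at 138 to 131 bases, and Mcm7 had 1 in the printed window, at 165 to 158 bases, and 1 after its start. The table holds a second start for Mcm7, whose 300 bases had 0 matches. In Mcm3 and Cdt1 the matches, 2 and 1, lay within the 50 bases after the start. The letters of the site were not in the windows of Mcm2 and Mcm10. Of the genes that act with the licensing factors or resemble them (origin recognition, MCM relatives, helicase activation, control of Cdt1 and geminin, kinases and cyclins), 9 of 37 held a match (24.3%). The CCAAT box, CCAAT on either strand, was in 6 of 8 members (75%) and in 41.1% of all genes. The CHR letters TTTGAA or TTCGAA were in 2 of 8 (25%) and in 21.7%. A match is a description of letters, not evidence of binding.

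Cdkn1a, the gene the label names, read 2.49, 2.52, 0.44, 1.85 and 1.11 in wild-type arrays 1 to 5 on the brighter of its 2 probes. It read 2.11, 0.96 and 1.40 in the 3 arrays with the p21KO label, and the groups overlapped on both probes. The position of the probes relative to the deletion is not known here, so they may check nothing. Hence the wording labelled p21-null below: every direction rests on the label. Per array, 82.2% to 89.2% of probes cleared background and no spot was saturated; precision is limited by the number of arrays. There were 3 slides: slide 1 held wild-type arrays 1, 2 and 3 with labelled array 1, slide 2 held wild-type array 4 with labelled array 2, and slide 3 held wild-type array 5 with labelled array 3. Of 14 tubule markers, all but Emx2 and Krt19 were above background on all 8 arrays. The samples are bulk tissue, in which fewer cells of a type and less RNA per cell cannot be told apart.

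The 10 licensing genes all had higher means in the arrays labelled p21-null. The fold was 3.07 for Cdc6 on the brighter of its 2 probes (1.95 on the other), 2.58 for Gmnn, 2.16 for Mcm5 and 2.12 for Mcm10, while Mcm3, Mcm4 and Mcm6 differed by 1.20-fold to 1.31-fold. Which of Cdc6 and Gmnn differed more depended on the probe rule: as the mean of its 2 probes Cdc6 differed by 1.29 on the log2 scale, against 1.37 for Gmnn. No member passed the adjusted threshold, and neither did any other gene on the array. Signals below are log2 values scaled to each array's 75th percentile, and a difference is the mean of the labelled p21-null arrays minus that of wild type.

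**Figure D1:**
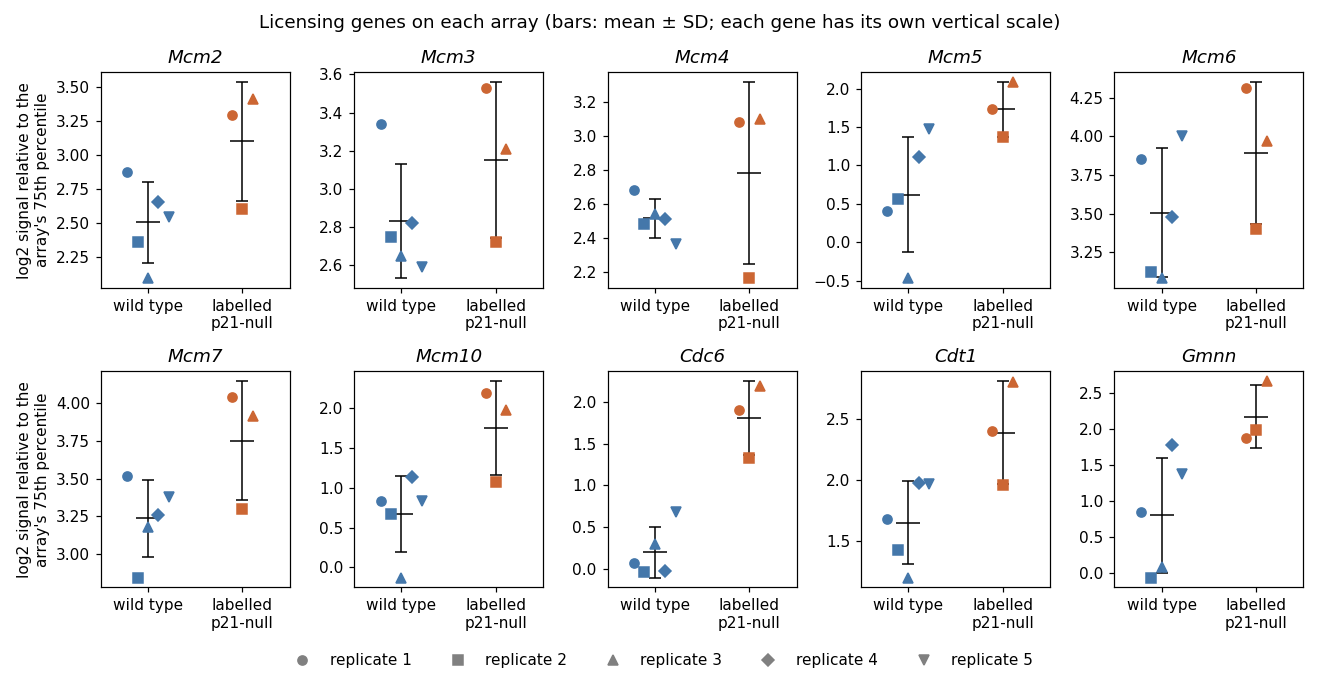
Log2 signal of each licensing gene on the 8 arrays, scaled to each array's 75th percentile, by group; symbols mark the replicate and black bars the mean ± SD (n = 5 wild type, n = 3 labelled p21-null). The groups do not overlap for Cdc6 and Gmnn, and labelled p21-null replicate 2 (orange square) is the lowest of its group in 9 of 10 genes.

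Over the 33619 genes and unnamed features fitted with limma, 0 had an adjusted p under 0.05 (0%), so the counts of members use looser rules beside their background. Members and the other lists were chosen with earlier results of these data known. An excess over background is therefore a description and not an independent test. All 10 members had a positive difference, against 47.7% of all features, and their median difference was 0.67 against −0.030. At an unadjusted p under 0.05, 5 of 10 were higher (Cdc6, Gmnn, Mcm10, Mcm5 and Cdt1) and 0 lower, against 6.2% and 3.91% of all features. At least a 2-fold higher mean was seen in 4 of 10, against 7.77%. Cdc6 alone (1 of 10) combined a 2-fold higher mean with an unadjusted p under 0.01, against 2.09%. In 2 of 10, Cdc6 and Gmnn, the lowest labelled array exceeded the highest wild-type array, against 4.44% of the features measured on all arrays. The 5 members at an unadjusted p under 0.05 became 3 without wild-type replicate 1, 2 or 3 and with slide as a fixed block, Mcm5 and Cdt1 being lost each time. Leaving out labelled p21-null replicate 1 gave 2 (Cdc6 and Gmnn), and leaving out labelled replicate 3 gave 1 (Cdc6). They became 0 with the mean of erythroid markers as a covariate and 1 (Cdc6) with that of liver markers.

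Among the ring subunits Mcm2 to Mcm7, the 95% interval of the difference lay above 0 for Mcm5 and included 0 for the other 5. Mcm2, which carries a histone-binding tail, read 2.87, 2.36, 2.09, 2.65 and 2.54 in wild type, in replicate order, against 3.29, 2.60 and 3.41 in the labelled arrays. Labelled replicates 1 and 3 lay above all wild-type arrays, and replicate 2 lay below wild-type replicates 1 and 4. The means were 2.51 ± 0.30 (SD, n = 5) in wild type and 3.1 ± 0.44 (SD, n = 3) in the labelled arrays, a difference of 0.60 (95% interval −0.12 to 1.31).

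Mcm3 read 3.34, 2.75, 2.65, 2.82 and 2.59 in wild type and 3.53, 2.72 and 3.21 in the labelled arrays, so that wild-type replicate 1 exceeded all but 1 of them. Its difference was 0.33 (95% interval −0.38 to 1.03). Mcm4 had the tightest wild-type values, 2.68, 2.48, 2.54, 2.51 and 2.36, while the labelled arrays were split around them at 3.08, 2.16 and 3.1. Labelled replicate 2 was thus the lowest of all 8 arrays for Mcm4, which with Mcm6 and Mcm7 makes up the catalytic core of the ring. The difference was 0.27 (95% interval −0.42 to 0.96).

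Mcm6 read 3.85, 3.12, 3.08, 3.48 and 4 in wild type against 4.31, 3.40 and 3.97, and wild-type replicate 5 stood just above labelled replicate 3. Mcm7 read 3.52, 2.84, 3.18, 3.26 and 3.38 against 4.04, 3.30 and 3.92. In both genes labelled replicate 2 lay within the wild-type range. Their differences were 0.39 (95% interval −0.40 to 1.18) and 0.52 (95% interval −0.16 to 1.20), and limma's unadjusted p-values were 0.296 and 0.120.

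Mcm5, which with Mcm2 forms the gate through which DNA enters the ring, spread far more widely in wild type: 0.41, 0.57, −0.47, 1.11 and 1.48, against 1.73, 1.37 and 2.09. Labelled replicate 2 lay below wild-type replicate 5 and above the other 4 wild-type arrays. Wild type averaged 0.62 ± 0.74 (SD, n = 5) and the labelled arrays 1.73 ± 0.36 (SD, n = 3), 1.11 ± 0.45 (SE) apart (limma unadjusted p = 0.0356, adjusted p = 0.452). With slide as a fixed block limma's unadjusted p for Mcm5 was 0.0601. Over the 56 splits of the arrays, the exact permutation p was 0.0536, two-sided. Whether Mcm5 differed from the other ring subunits in its response was not tested.

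Mcm10, a helicase activation factor outside the ring despite its name, read 0.84, 0.67, −0.13, 1.14 and 0.84 in wild type and 2.20, 1.08 and 1.98 in the labelled arrays. Here the groups missed separation by 0.058, the amount by which wild-type replicate 4 exceeded labelled replicate 2. The difference was 1.09 ± 0.39 (SE) (limma unadjusted p = 0.0214, adjusted p = 0.398).

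The loading factor Cdc6 had the widest gap between the groups among the 10 genes, on 1 of its probes. On the brighter of its 2 probes it read 0.07, −0.04, 0.30, −0.03 and 0.68 in wild type and 1.91, 1.33 and 2.20 in the labelled arrays, leaving a gap of 0.66 between the groups. Wild type averaged 0.20 ± 0.30 (SD, n = 5) and the labelled arrays 1.81 ± 0.44 (SD, n = 3), 1.62 ± 0.32 (SE) apart (95% interval 0.90 to 2.33). Limma's unadjusted p was 0.00064 (adjusted p = 0.283), and the two-sided exact permutation test gave p = 0.0179, the smallest that 56 splits allow. The second Cdc6 probe, matched to the same RefSeq transcript, read 0.62, −0.59, −0.51, 0.07 and −0.39 against 0.79, 0.01 and 1.62. On it the groups overlapped, with labelled replicate 2 below wild-type replicates 1 and 4, and the difference was 0.96 ± 0.45 (SE) (exact permutation p = 0.0714, two-sided). The call of separation for Cdc6 therefore holds on 1 of 2 probes.

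Cdt1, the partner of Cdc6 in loading, read 1.68, 1.43, 1.20, 1.98 and 1.97 in wild type and 2.40, 1.96 and 2.81 in the labelled arrays. Labelled replicate 2 was 0.018 below wild-type replicate 4, so the groups touched. The difference was 0.74 ± 0.32 (SE) (limma unadjusted p = 0.0485, adjusted p = 0.488). Limma's unadjusted p for Cdt1 was 0.085 with slide as a fixed block, 0.0519 with quantile scaling, 0.0593 with normexp correction and 0.0667 in the deposited table. Gmnn, whose product restrains Cdt1, read 0.85, −0.07, 0.08, 1.78 and 1.37 against 1.87, 1.98 and 2.67. Its lowest labelled array lay 0.087 above the highest wild-type array, and wild-type replicates 2 and 3 read close to 0. The difference was 1.37 ± 0.48 (SE) (limma unadjusted p = 0.0189, adjusted p = 0.388; two-sided exact permutation p = 0.0357).

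**Figure D2:**
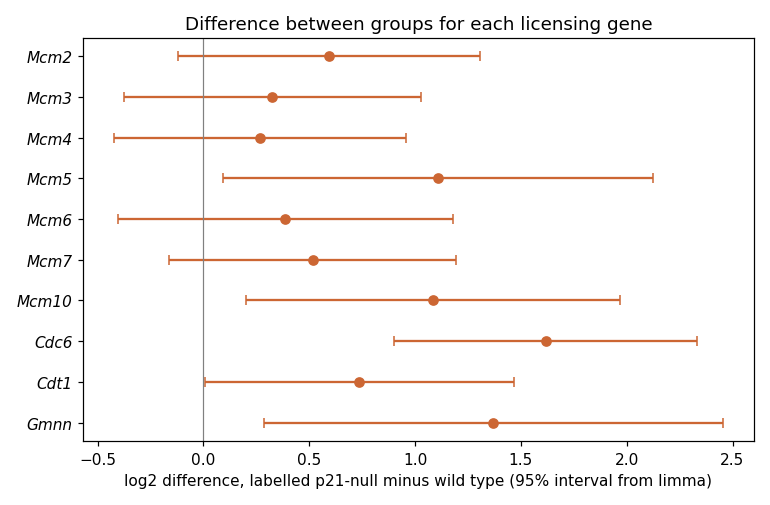
Log2 difference of each licensing gene, labelled p21-null minus wild type, with its 95% interval from limma (5 against 3 arrays). The intervals of Mcm5, Mcm10, Cdc6, Cdt1 and Gmnn lie above 0 before adjustment, and those of the other ring subunits include 0.

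The order of the wild-type arrays differed from gene to gene, while the lowest labelled array was mostly the same one. Labelled replicate 3 was the highest of all 8 arrays in 6 genes and labelled replicate 1 in the other 4. Labelled replicate 2 was the lowest of its group in 9 of 10, Gmnn being the exception. Among wild-type arrays replicate 3 was the lowest in 5 genes, replicate 2 in 3 and replicate 5 in 2, while replicate 1 was the highest in 4 and replicates 4 and 5 in 3 each. The mean over the 10 genes was 2.01, 1.61, 1.45, 2.07 and 2.12 in wild type and 2.84, 2.19 and 2.93 in the labelled arrays.

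Within slides the differences were uneven. On slide 1 all 10 members were higher in the labelled array than in the mean of the 3 wild-type arrays, with a median of 0.96 against −0.17 for all features, of which 42% were higher. On slide 2, which sets labelled replicate 2 against wild-type replicate 4, 4 were higher and 6 lower, with a median of −0.035 against 0.13 for all features, of which 56% were higher. On slide 3 the count was 9 higher and 1 lower, with a median of 0.79 against 0.023 for all features, of which 51.4% were higher. Cdc6 stood at 1.80, 1.36 and 1.52 on slides 1, 2 and 3 on its brighter probe, but at 0.95, −0.062 and 2.0 on the other. Gmnn stood at 1.58, 0.20 and 1.30, Mcm5 at 1.56, 0.26 and 0.61, and Mcm10 at 1.74, −0.058 and 1.14. Each slide holds only 1 labelled array, and slides 2 and 3 only 1 wild-type array. No labelled value within a slide therefore has a replicate check.

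**Figure D3:**
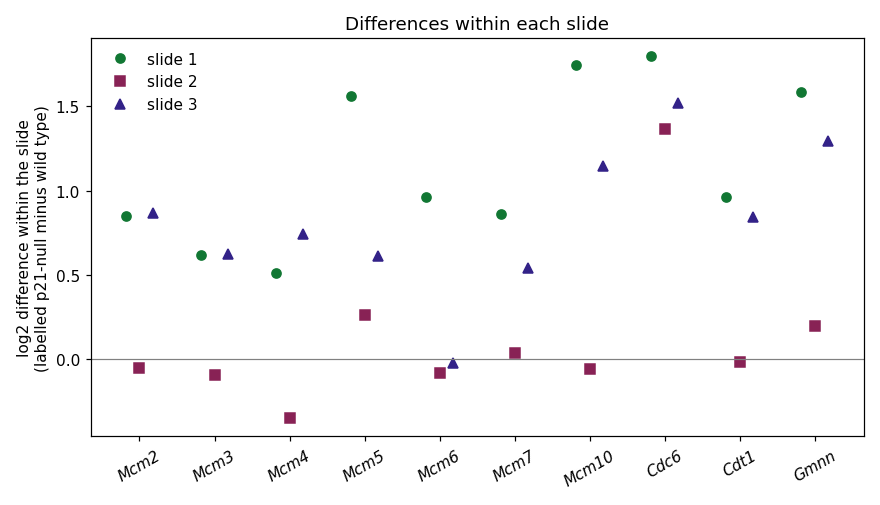
Log2 difference of each licensing gene within each of the 3 slides (labelled p21-null minus wild type), with Cdc6 on the brighter of its 2 probes. That probe is more than 1 above 0 on all 3 slides, whereas the other Cdc6 probe, not drawn, was at −0.062 on slide 2, where the other members lie between −0.35 and 0.26.

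Genes that act before, beside or after licensing, with 4 MCM relatives, were read from a list of 45, of which 43 were measured. Of these 40 had a positive difference, against 47.7% of all features, and the median was 0.57. At an unadjusted p under 0.05, 12 were higher and 0 lower, against 6.2% and 3.91% of all features. None passed the adjusted threshold. In 10 of the 43 the lowest labelled array exceeded the highest wild-type array, against 4.44% of the features measured on all arrays. The count of 12 became 22 with array weights (21 higher, 1 lower), 7 without wild-type replicate 2 or labelled replicate 1, 4 without labelled replicate 3, and 0 with either marker covariate.

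In the origin recognition complex the subunits were unequal. Orc1, the subunit that is made and destroyed with the cycle, read −4.89, −4.75, −3.26, −3.51 and −2.44 in wild type and −2.33, −1.62 and −1.48 in the labelled arrays, a difference of 1.96 ± 0.58 (SE) (limma adjusted p = 0.321). Orc5 differed by 1.25 (standard error 0.43), also without overlap between the groups. Orc2 differed by 0.91, Lrwd1, an Orc-associated protein, by 0.57 and Orc6 by 0.35, while Orc3 and Orc4 stood at 0.033 (95% interval −0.59 to 0.65) and 0.046 (95% interval −0.56 to 0.65).

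Factors that switch the loaded helicase on were higher in 13 of 13, against 47.7% of all features, with a median of 0.71. At an unadjusted p under 0.05, 4 were higher and 0 lower, against 6.2% and 3.91% of all features. Cdc45, which joins Mcm2 to Mcm7 in the active helicase, read −0.98, −0.95, −0.37, −1.64 and −0.84 in wild type and 0.32, 0.25 and 0.18 in the labelled arrays. The groups were 0.55 apart and the labelled arrays nearly equal, 1.20 ± 0.33 (SE) higher on average (limma adjusted p = 0.292). The GINS subunits, the other helicase partners, differed by 0.71 (Gins1), 0.75 (Gins2), 0.086 (Gins3) and 0.74 (Gins4). Dbf4, the activator of the Cdc7 kinase, differed by 0.95 without overlap, whereas Cdc7 itself differed by 0.21 ± 0.52 (SE). Donson, a replisome factor, differed by 0.93.

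**Figure D4:**
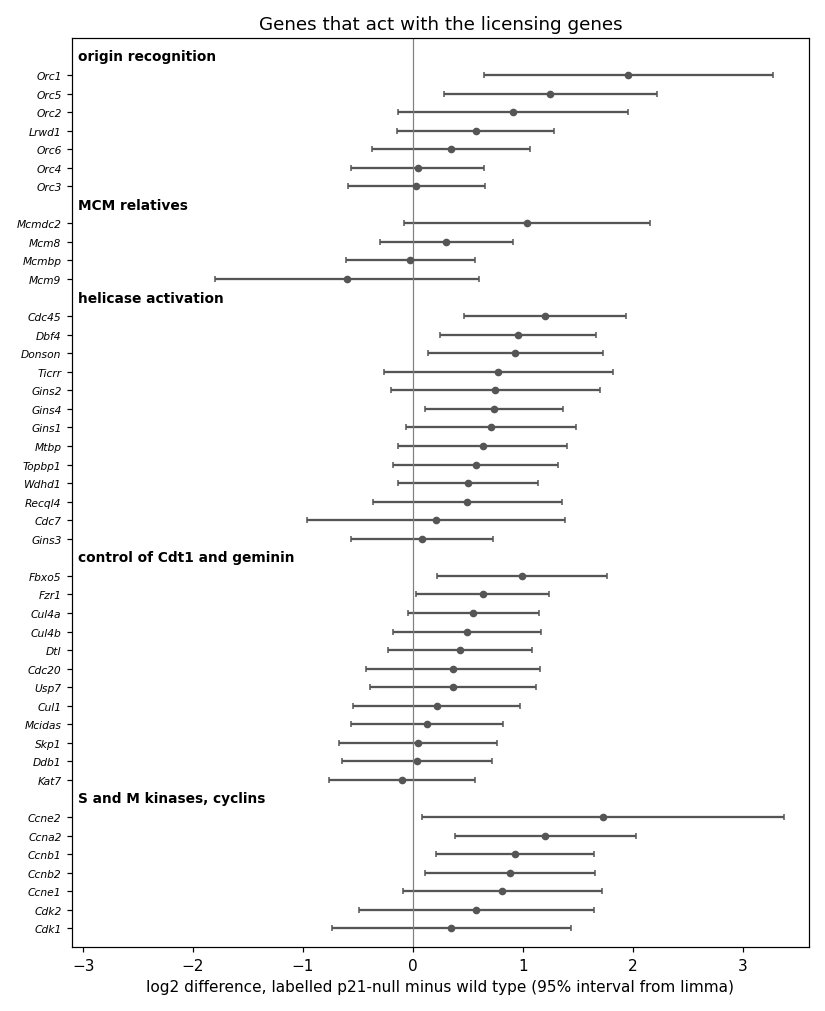
Log2 difference, labelled p21-null minus wild type, with 95% intervals from limma for the 43 measured genes that act with the licensing genes, in 5 groups. Orc1, Cdc45 and Ccna2 have intervals furthest above 0, and Orc3, Orc4, Mcmbp and Ddb1 sit near 0.

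Among genes that act on Cdt1 or geminin, in either direction, or resemble geminin, 11 of 12 measured had a positive difference. The share over all features was 47.7%, and the median of the 12 was 0.36. Fbxo5, the inhibitor of the anaphase-promoting complex that protects geminin, differed by 0.99 ± 0.34 (SE), and Fzr1, a subunit that directs that complex at geminin in G1, by 0.63 ± 0.27 (SE). Parts of the ligase that destroys Cdt1 stood at 0.55 (Cul4a), 0.49 (Cul4b), 0.43 (Dtl) and 0.040 (Ddb1). The kinases and cyclins were higher in 7 of 7, against 47.7% of all features. Ccna2, encoding cyclin A2, differed by 1.21. The cyclin E genes Ccne1 and Ccne2 differed by 0.81 ± 0.40 (SE) and 1.73 ± 0.73 (SE), with overlapping groups in both. For Ccne2, labelled replicate 1 (−2.47) lay below wild-type replicates 4 and 5 (−1.31 and −2.32). The cyclin B genes Ccnb1 and Ccnb2 differed by 0.93 and 0.89. Cdk2 and Cdk1 differed by 0.58 and 0.35, each less than the wild-type SD of 0.83 and 0.80.

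Beside the licensing genes, the median difference was 0.69 over 26 genes of the replication fork and nucleotide supply and 0.77 over 18 mitotic genes, against 0.67 for the members. All 26 and all 18 had positive differences, against 47.7% of all features. At an unadjusted p under 0.05, 9 and 4 of them were higher and 0 lower, against 6.2% and 3.91% of all features. Whether the lists differ from each other was not tested. The fork genes with the smallest p were Pole2, Fen1 and Rrm1, at 1.29, 1.12 and 1.03, and the mitotic ones Dlgap5, Mki67 and Nuf2, at 1.09, 1.12 and 1.28.

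Markers of blood and liver cells were higher on the same arrays, and beyond the covariate values given here their part in the differences was not tested. Over all features 47.7% were higher, and 6.2% were higher at an unadjusted p under 0.05. These shares are the background for the counts of higher markers. For lower markers the background is 17599 of 33619 features lower, and 3.91% lower at an unadjusted p under 0.05. Of 20 erythroid markers 18 were higher in the labelled arrays, 14 at an unadjusted p under 0.05. None of the 20 was below background on any array. Their summed level, as log2 of the sum, ran from 7.32 to 8.52 in wild type and from 8.23 to 8.90 in the labelled arrays. The 16 liver markers were all higher, 15 at an unadjusted p under 0.05, with summed levels of 4.19 to 7.80 against 7.43 to 8.58 and none below background. Of 16 measured macrophage markers 13 were higher, 11 at an unadjusted p under 0.05. The list mean was 0.22 in wild type and 1.49 in the labelled arrays. Their summed levels, 7.14 to 7.97 against 7.55 to 8.02, rest mainly on the brightest marker, which read 6.80 to 7.70 against 7.01 to 7.63. Of 14 tubule markers 5 were higher, against 47.7% of all features, and 9 lower. At an unadjusted p under 0.05, 1 of the 14 was lower and 0 higher, against 3.91% and 6.2% of all features. Their summed levels were 3.50 to 5.37 in wild type and 3.48 to 4.12 in the labelled arrays. All 10 neural markers were lower (median −1.56), against 17599 of 33619 features. At an unadjusted p under 0.05, 3 of them were lower and 0 higher, against 3.91% and 6.2% of all features. Their summed levels were 3.12 to 5.47 in wild type and 2.29 to 2.79 in the labelled arrays, which did not overlap. Of 12 stromal markers 9 were lower (median −0.65), 1 at an unadjusted p under 0.05, against the same shares.

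**Figure D5:**
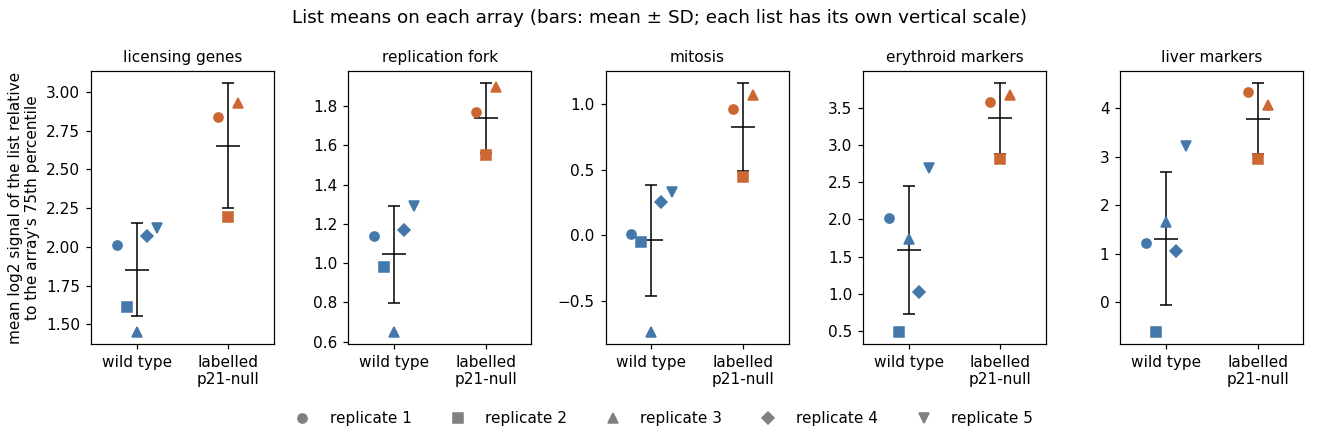
Mean log2 signal per array of the licensing genes, the replication fork, mitosis, erythroid marker and liver marker lists, scaled to each array's 75th percentile, with the mean ± SD of each group. Labelled p21-null replicate 2 (orange square) is the lowest of its group in all 5 lists, and wild-type replicate 5 is the highest wild-type array in each.

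The mean of the erythroid markers was 2.02, 0.49, 1.74, 1.03 and 2.69 in wild type and 3.58, 2.81 and 3.67 in the labelled arrays, so labelled replicate 2 was again the lowest of its group. With this mean as a covariate the differences of the members ran from −0.37 to 0.95, with a median of 0.31, and those of Mcm6 and Mcm7 were negative (−0.37 and −0.032). With the liver mean they ran from −0.23 (Mcm6) to 1.03, with a median of 0.38. Cdc6 then stood at 0.95 with a standard error of 0.46 and at 1.03 with a standard error of 0.44. Both marker means separate the groups almost as the label does, so marker level and group cannot be told apart with 8 arrays.

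Genes with a symbol, outside the members, were ranked by how closely their array-to-array pattern followed the mean of Mcm2 to Mcm7. Each group's mean was first removed, and 33350 features were compared over the 8 arrays. Unnamed features were skipped, so the 8 closest genes rank 1 to 5, 9, 11 and 13 among those features. They were Ctsh, a lysosomal protease (r = 0.988), Anxa7, an annexin (0.985), Dek, a chromatin protein (0.984), Lcn2, a lipocalin (0.980), Acadvl, an enzyme of fatty acid oxidation (0.979), Otud5, a deubiquitinase (0.976), Kcnn1, a potassium channel (0.972), and Smc4, a condensin subunit (0.969). Kcnn1 was dim, reading −6.09 to −4.16 across the arrays. Of the members outside the ring, Mcm10 and Cdt1 followed that mean at r = 0.899 and 0.847, and Cdc6 and Gmnn less closely at 0.556 and 0.561. Each ring subunit set against the other 5 gave r = 0.942 for Mcm2, 0.872 for Mcm6, 0.825 for Mcm7, 0.630 for Mcm3, 0.630 for Mcm4 and 0.394 for Mcm5. These values describe 8 arrays that lie on 3 slides and differ in cell type markers, and carry no test.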

How the data were processed

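Spot intensities, linear and corrected by the scanner software (Agilent Feature Extraction 10.7.3.1) for background and slide trends, were deposited without normalization between arrays, per the file headers. The authors also deposited log2 values per probe, which served as an alternative; the submitters' processing notes name limma.

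Accessions were matched without versions to RefSeq (GRCm38.p6), which named 26056 probes and left 29625 unnamed. Each array's 75th percentile over non-control spots was subtracted from the log2 processed intensity. Outlier spots were dropped and spots of a probe averaged. Probes well above background on at least 3 arrays were kept (50046), and the probe with the highest mean stood for its gene. The group comparison used limma (version 3.58.1, R version 4.3.3; lmFit and eBayes, no covariate) with Benjamini-Hochberg adjustment over 33619 genes and unnamed features at 0.05, after a run tested on simulated data. Exact permutation tests used all 56 splits. Named genes were the members, any measured gene of the 5 lists that act with or resemble them, the 3 of smallest p in the fork, mitosis and marker lists, the 8 most like the Mcm2 to Mcm7 mean, and Cdkn1a; Emx2 and Krt19 were named after their values were seen. Members and lists were chosen with earlier results of these data known. Alternatives covered scaling, background correction, filters, probe rule, blocks, weights, moderation, the deposited table, marker covariates and leaving out each array.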

Additional observations from a re-analysis of the deposited data

How the results depend on the processing

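All 10 members kept a positive difference under quantile and median scaling, normexp correction, both other filters, the mean of probes, slide and replicate blocks, array weights, trend and robust moderation, the deposited table and every left-out array. The exceptions were the covariates: −0.37 for Mcm6 and −0.032 for Mcm7 with the erythroid mean, and −0.23 for Mcm6 with the liver mean; the cause was not tested. No member passed an adjusted p of 0.05 in any of the 22 alternatives. Cdc6 ranged from 0.95 to 1.86, and was below Gmnn as the mean of its 2 probes (1.29 against 1.37), with the replicate block (1.70 against 1.89) and without wild-type replicate 4 (1.56 against 1.61).

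The count of features past the adjusted threshold was 0 and became 3 with normexp correction, 13 with array weights (labelled p21-null replicate 3 weighing 4.02) and 0 to 1 on leaving out an array (1 without wild-type replicate 4). The 992 features at an unadjusted p under 0.01 and 2-fold became 2425 with array weights, 84 with the erythroid and 92 with the liver covariate, and 300 to 1305 on leaving out an array (410 without labelled p21-null replicate 1, 300 without replicate 3). The 5 members at an unadjusted p under 0.05 became 3 with slide as a fixed block, 0 with the erythroid and 1 with the liver covariate, and 1 to 6 on leaving out an array. The 12 acting genes became 22 with array weights, 0 with either covariate, and 4 to 15 on leaving out an array. Arrays that share a replicate number did not deviate together (r = 0.068, −0.086 and −0.073). Low correlations cannot exclude that the numbers pair samples, and the labels do not say, so pairing is not known. The 5 members became 4 with the replicate block, Cdt1 being lost.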

Other observations

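Relatives of the members that do not load the helicase were spread around 0. Mcm8 and Mcm9, which act in recombination repair, differed by 0.30 (standard error 0.27) and −0.60 (standard error 0.53), and Mcmbp, which binds free MCM proteins, by −0.022 (standard error 0.26). Mcmdc2, an MCM-like gene of meiosis, read −3.63, −3.92, −4.69, −4.16 and −2.61 in wild type and −3.49, −2.32 and −2.48 in the labelled arrays, a difference of 1.04 ± 0.49 (SE). The 1 probe of Mcidas, a geminin relative that acts in multiciliated cells, gave a bright signal on every array. It read 6.91 to 7.74 in wild type and 7.16 to 7.84 in the labelled arrays, with a difference of 0.13. Whether this probe reports Mcidas alone was not tested, so its level may not be that of Mcidas. The probe of Gmnc, the other geminin relative of multiciliated cells, cleared background on 1 of the 5 wild-type arrays and 0 of the 3 labelled ones, and was not tested.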
